A study of Homo sapiens with 12 samples.

Results

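The mitochondrial carriers of the SLC25 family were followed at the transcript level in SW480, a line established from a human colon adenocarcinoma, when expression of GPD1L was lowered or raised. The members were all rows whose gene symbol starts with SLC25A and whose mean was at least 1 FPKM (fragment counts scaled by transcript length and library size) over the 6 libraries of each of the 2 deposited tables. Of 39 such rows, found in both tables, 38 met that level, among 13554 genes listed for the knockdown and 13583 genes listed for the overexpression. The remaining one, SLC25A41, lay at 0.235 to 0.939 FPKM over the 12 libraries. The lines carried a short hairpin RNA against GPD1L (shGPD1L), a control hairpin (shNC), GPD1L overexpression (OE) or the empty vector (Vector), with 3 libraries in each of the 4 groups. The labels name no drug, time or other allele, and no clone, culture or passage for a library, so that p-values measure the spread between these libraries, which may be technical. Each change of GPD1L was made in 1 line against 1 control line, and an effect of the line or of the hairpin sequence cannot be told apart from an effect of GPD1L.

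SLC25 carriers are small proteins, mostly of the inner mitochondrial membrane, that exchange metabolites, nucleotides, cofactors and ions between the cytosol and the matrix. The aspartate-glutamate carriers and the oxoglutarate-malate carrier are the membrane steps of the malate-aspartate shuttle, which moves the reducing equivalents of cytosolic NADH into mitochondria. The glycerol-3-phosphate shuttle, of which GPD1 is the cytosolic enzyme and to which GPD1L is related by sequence, does the same work by another route. The mitoferrins SLC25A37 and SLC25A28 bring iron into mitochondria for haem and iron-sulfur clusters.

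GPD1L itself stood at 1.55, 1.26 and 2.23 FPKM in shGPD1L, against 8.68, 8.01 and 9.10 FPKM in shNC. It stood at 22.3, 22.8 and 22.1 FPKM in OE, against 10.7, 10.2 and 11.1 FPKM in Vector, and the groups did not overlap in either table. By an exact permutation test, two-sided, p was 0.1 in both tables, the smallest value possible with 3 against 3 libraries. By limma with Benjamini-Hochberg adjustment the changes were -1.85 (adjusted p = 0.00675) and 1.01 (adjusted p = 4.74e-05) on the log2(FPKM + 1) scale. The knockdown call did not hold when shNC replicate 1, 2 or 3 was left out (limma adjusted p 0.0677, 0.0522 and 0.0836). Of the 8 epithelial markers fixed for the check, 7 were listed in the knockdown table, including EPCAM, CDX1, CDX2 and VIL1 but not KRT20. All 8 were listed in the overexpression table. Summed levels were 3340 to 3754 FPKM in shGPD1L and 4160 to 4466 FPKM in shNC over 7 genes. Over 8 genes they were 3335 to 3419 FPKM in OE and 3110 to 3209 FPKM in Vector. Of the fibroblast markers COL1A1 was the one listed, with a summed level under 1 FPKM in every library, and no endothelial, muscle or brown fat marker was listed. The immune markers PTPRC, CD3E and CD79A were not listed either, while CD68 and CD14 summed to at most 28.7 FPKM in shGPD1L, 32.0 FPKM in shNC, 19.5 FPKM in OE and 19.6 FPKM in Vector. Their part in the carrier values was not tested. In bulk RNA, fewer cells of a kind and less RNA per cell cannot be told apart. One library, shGPD1L replicate 3, stood apart on the first principal component of its table, at 29.1 where the other 5 libraries of the table lay between -12.1 and 0.319. Among the carriers it lay below all 5 other libraries of its table for 13 members and above all of them for 9, and knockdown changes are therefore given with and without it. The share of all genes for which this library was extreme was not counted, so these counts are not read as a trait of the carriers.

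FPKM values are per length and can be compared between genes, and on that scale 4 members carried most of the family's RNA. SLC25A5, the main ADP/ATP carrier of dividing cells, averaged 334 FPKM over the 12 libraries, the phosphate carrier SLC25A3 191 FPKM, the ADP/ATP carrier SLC25A6 151 FPKM, and SLC25A39, a carrier needed for mitochondrial glutathione import, 117.9 FPKM. The phosphate carrier and the 3 ADP/ATP carriers together made up 52.8% ± 1.61 of the summed FPKM of the family in shGPD1L, 51.2% ± 0.443 in shNC, 53.3% ± 2.10 in OE and 51.9% ± 1.44 in Vector (SD, n = 3 each). A further 9 members averaged between 20 and 100 FPKM, 11 between 10 and 20 FPKM, 10 between 5 and 10 FPKM and 4 below 5 FPKM, down to SLC25A45 at 1.1 FPKM. The summed FPKM of the 38 members was 1319, 1334 and 1324 in shGPD1L, against 1295, 1260 and 1296 in shNC, a gap of 42.1 FPKM between the means without overlap (exact two-sided permutation p = 0.1). Abundant members weigh most in this sum. Means in shGPD1L and shNC were 163.5 and 123.0 FPKM for SLC25A6, 350.5 and 329.2 for SLC25A5, and 174.0 and 193.4 for SLC25A3. Over the members, 18 knockdown changes lay above 0 and 20 below. In OE the sum was 1379, 1292 and 1296, against 1367, 1330 and 1284 in Vector, and the groups overlapped.

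**Figure D1:**
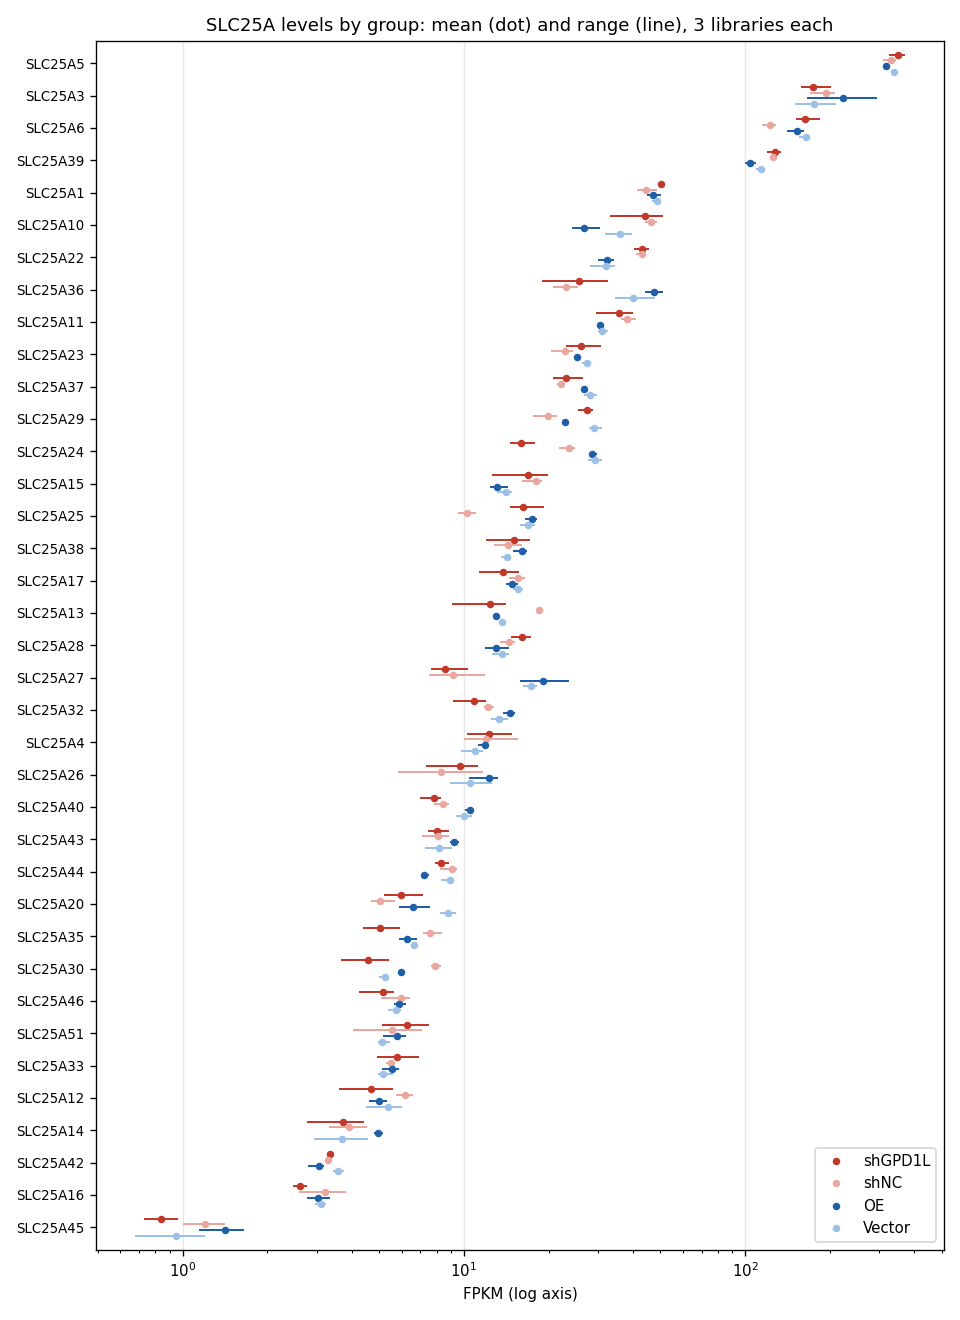
Level of the SLC25A members reported here, in FPKM on a log axis, with the mean (dot) and the lowest to highest library (line) of the 3 libraries of shGPD1L, shNC, OE and Vector, ordered by the mean over all 12 libraries. SLC25A5 leads at 334 FPKM and SLC25A45 is last at 1.1 FPKM.

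Levels set across the 2 tables carry no test, since each may have been normalized on its own. All 6 libraries of the overexpression table lay above all 6 of the knockdown table for 4 members (SLC25A24, SLC25A27, SLC25A36 and SLC25A40) and below all of them for 2 (SLC25A22 and SLC25A39). The share of all genes set apart in this way was not counted, so these counts are not read as a trait of the carriers. SLC25A27, a carrier related to the uncoupling proteins, was at 7.61, 7.80 and 10.3 FPKM in shGPD1L and 8.07, 7.50 and 11.9 FPKM in shNC. It was at 23.6, 15.8 and 17.7 FPKM in OE and 17.7, 18.2 and 16.3 FPKM in Vector. SLC25A36, a pyrimidine nucleotide carrier, was at 18.9, 25.1 and 32.7 FPKM in shGPD1L and 20.8, 25.5 and 22.9 FPKM in shNC. It was at 51.2, 44.1 and 46.8 FPKM in OE and 37.7, 47.7 and 34.5 FPKM in Vector. For both genes the groups overlapped within each table.

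In the comparison of shGPD1L with shNC the question was which carriers differ when GPD1L is lowered. Changes are on the log2(FPKM + 1) scale, where the added 1 shrinks the change of a weakly expressed gene, with adjusted p-values from limma after the Benjamini-Hochberg adjustment over all genes tested, and a gene is called at an adjusted p under 0.05. None of the 38 members was called over all 6 libraries, where 0.592% of the 12156 genes tested were called. An unadjusted limma p under 0.05 was found for 8 members, 3 higher and 5 lower. It was found for 1980 of all 12156 genes, 734 higher and 1246 lower. Without shGPD1L replicate 3, 5 members were called, 2 higher (SLC25A25 and SLC25A6, against 1.8% of all genes) and 3 lower (SLC25A13, SLC25A24 and SLC25A30, against 3.21%), where 5.01% of all genes were called in either direction. The median change of the members was -0.01 log2 units, against -0.04 for all genes tested, with 18 members above 0 and 20 below. The groups did not overlap for 10 of the 38 members, 4 higher in shGPD1L (SLC25A1, SLC25A6, SLC25A25 and SLC25A29) and 6 lower (SLC25A12, SLC25A13, SLC25A24, SLC25A30, SLC25A35 and SLC25A45). Over all genes tested 9.54% were higher and 15.1% lower without overlap, 24.7% in all, so that 10 of 38 is near that share.

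**Figure D2:**
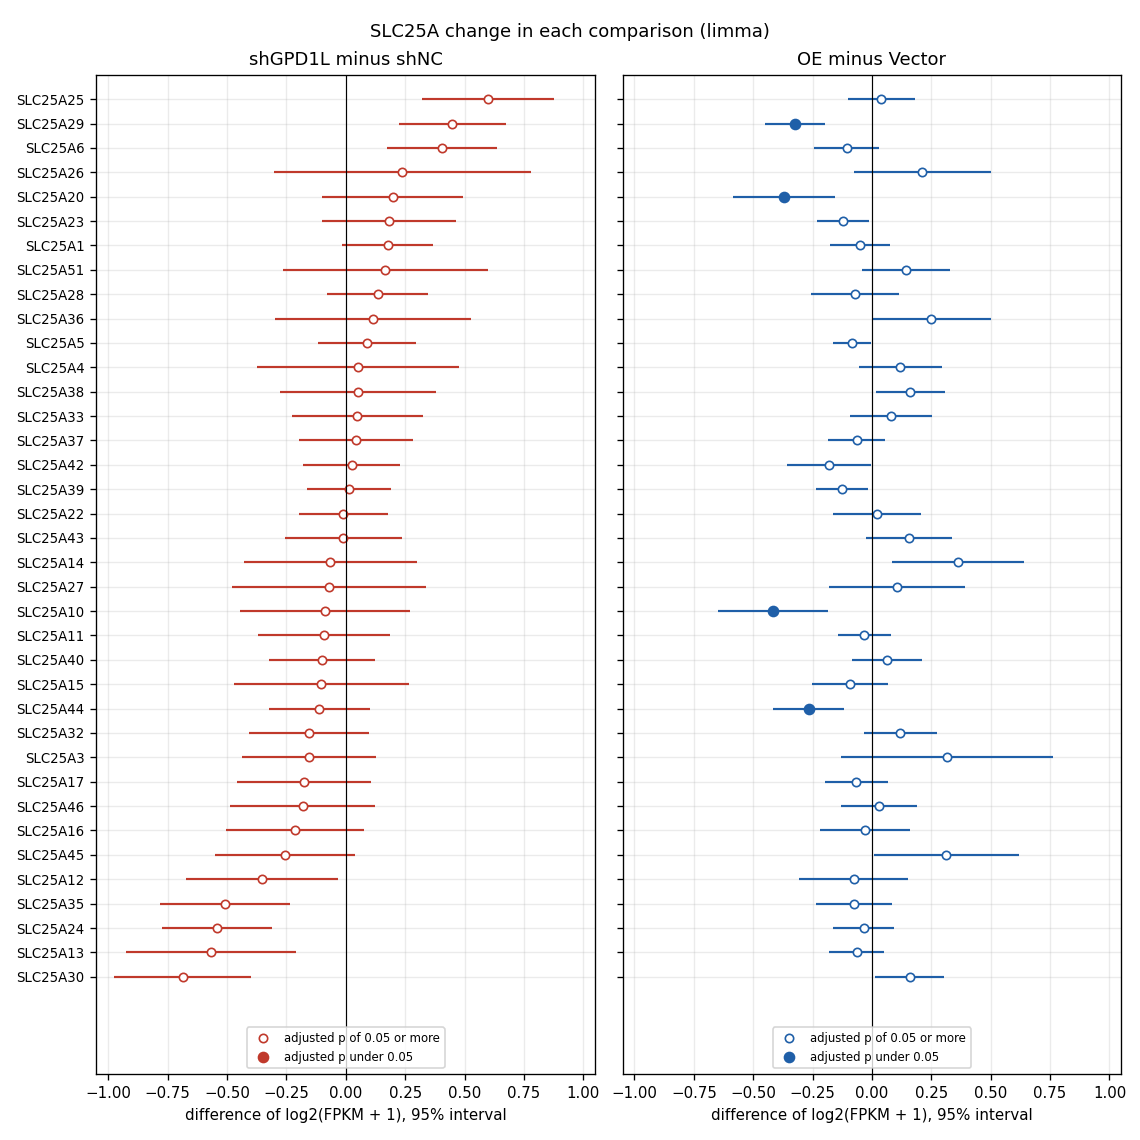
Change of the members reported here in log2(FPKM + 1) with its 95% interval from limma, for shGPD1L minus shNC (left) and OE minus Vector (right), both in the order of the left panel; filled dots are called at an adjusted p under 0.05. No member is filled on the left, and SLC25A10, SLC25A20, SLC25A29 and SLC25A44 are filled on the right, all below 0.

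Among the NADH shuttle carriers the aspartate-glutamate carriers lay lower in the knockdown. SLC25A13 (citrin, ENSG00000004864, chromosome 7, 96120220 to 96322147, minus strand, GRCh38), which exchanges matrix aspartate for cytosolic glutamate, was at 14.1, 14.1 and 9.08 FPKM in shGPD1L, against 18.8, 18.1 and 18.8 FPKM in shNC. All shGPD1L libraries lay below all shNC libraries, and replicate 3 was far below the other two. The change was -0.57 (SE 0.16, limma adjusted p = 0.157), and without shGPD1L replicate 3 it was -0.37 (SE 0.06, limma adjusted p = 0.0247), which passed the threshold. In OE, SLC25A13 stood at 12.7, 13.1 and 13.3 FPKM, against 13.6, 13.9 and 13.5 FPKM in Vector, a change of -0.06 (SE 0.05, limma adjusted p = 0.386).

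SLC25A12 (aralar, chromosome 2, 171784370 to 171999859, minus strand), the second aspartate-glutamate carrier, was the weaker expressed of the pair in every library. It was at 5.61, 4.76 and 3.59 FPKM in shGPD1L, against 6.13, 5.74 and 6.58 FPKM in shNC, without overlap, a change of -0.35 (SE 0.14, limma adjusted p = 0.271, and -0.21 with adjusted p = 0.247 without shGPD1L replicate 3). In OE it was at 4.61, 5.34 and 5.04 FPKM, against 5.57, 4.48 and 6.00 FPKM in Vector, with overlap. SLC25A12 made up 27.4% ± 1.84 of the summed FPKM of the pair in shGPD1L and 24.9% ± 0.936 in shNC (SD, n = 3 each; exact two-sided permutation p = 0.2), and 27.7% ± 1.15 in OE against 28.1% ± 3.28 in Vector.

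SLC25A11 (chromosome 17, 4937130 to 4940251, minus strand), the oxoglutarate-malate carrier that completes the shuttle, was at 37.9, 39.8 and 29.6 FPKM in shGPD1L, against 41.0, 36.7 and 36.2 FPKM in shNC, and the groups overlapped (change -0.09, 95% interval -0.37 to 0.19, limma adjusted p = 0.748). Without shGPD1L replicate 3 its change was 0.03, also not called. In OE it was at 29.8, 30.2 and 31.1 FPKM, against 29.9, 32.5 and 30.8 FPKM in Vector, a change of -0.03 (95% interval -0.14 to 0.08), which turned to 0.02 with library totals set equal. SLC25A12 and SLC25A11 overlap listed genes on the other strand (HAT1 and METAP1D, and RNF167), and since the labels do not say that strand was kept, their reads may not be separated.

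Of the shuttle enzymes tested beside the carriers, 0 of 5 were called by limma in the knockdown, with 0 at an unadjusted p under 0.05 and 0 called without shGPD1L replicate 3. In the overexpression 1 of 5 was called, the cytosolic aspartate aminotransferase gene GOT1, where 22.4% of all genes were called. GOT1, which makes oxaloacetate from the exported aspartate, was at 67.9, 64.5 and 65.6 FPKM in OE, against 49.2, 49.2 and 49.0 FPKM in Vector, a change of 0.42 (SE 0.04, limma adjusted p = 0.000595) that held in all 16 alternative settings.

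The iron importers showed no called change. SLC25A28 (mitoferrin-2, chromosome 10, 99610522 to 99620609, minus strand), the widely expressed form, was at 17.4, 16.01 and 14.8 FPKM in shGPD1L, against 15.2, 13.4 and 14.9 FPKM in shNC, with overlap (change 0.13, 95% interval -0.08 to 0.35, limma adjusted p = 0.512, and 0.19 with 0.208 without shGPD1L replicate 3). In OE it was at 11.9, 12.7 and 14.4 FPKM, against 14.1, 14.5 and 12.6 FPKM in Vector, with overlap (change -0.07, 95% interval -0.26 to 0.11). SLC25A37 (mitoferrin-1, chromosome 8, 23528805 to 23575463, plus strand), the form known for its role in red blood cell precursors, was at 21.7, 20.7 and 26.6 FPKM in shGPD1L, against 22.6, 21.4 and 22.5 FPKM in shNC. Its shGPD1L replicate 3 was the highest of the 6, and its change of 0.04 turned to -0.06 without that library, with limma adjusted p-values of 0.876 and 0.622.

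In OE, SLC25A37 was at 27.5, 26.6 and 26.3 FPKM, against 29.8, 26.8 and 27.7 FPKM in Vector, with overlap (change -0.07, 95% interval -0.19 to 0.06). Per length SLC25A37 was the more abundant mitoferrin in every library, at 58.8% ± 4.81 of the pair in shGPD1L and 60.5% ± 0.882 in shNC, and at 67.4% ± 2.65 in OE and 67.2% ± 2.00 in Vector (SD, n = 3 each). Among 13 tested genes of mitochondrial iron use, 0 were called by limma in the knockdown. An unadjusted p under 0.05 was found for 2, both lower, and for 1980 of all 12156 genes, 1246 of them lower. Without shGPD1L replicate 3, 1 was called lower, against 3.21% of all genes. That gene was FECH, the ferrochelatase that inserts iron into haem, at 17.1, 18.2 and 20.5 FPKM in shGPD1L, against 23.7, 21.8 and 23.8 FPKM in shNC (change -0.30, limma adjusted p = 0.18; without shGPD1L replicate 3 -0.37, adjusted p = 0.0327). In the overexpression 3 of the 13 were called, a count near the share of 22.4% over all genes. ISCU, the scaffold of iron-sulfur cluster assembly, was higher in OE, at 99.3, 98.3 and 91.0 FPKM against 78.2, 78.1 and 78.03 FPKM in Vector. So was ALAS1, the first enzyme of haem synthesis, at 63.5, 60.5 and 62.4 FPKM against 51.3, 53.7 and 51.9 FPKM in Vector. ABCB10, an inner membrane transporter of the haem pathway, was lower, at a change of -0.20 (limma adjusted p = 0.0468), and its call was lost in 9 of 16 alternative settings. In the knockdown ABCB10 was also lower, at 13.2, 15.43 and 10.91 FPKM in shGPD1L, against 17.27, 17.92 and 17.93 FPKM in shNC, without overlap. That change, -0.41 (limma adjusted p = 0.173), or -0.29 with 0.0887 without shGPD1L replicate 3, was not called.

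The calcium-regulated ATP-Mg/phosphate carriers SLC25A24, SLC25A25 and SLC25A23, which adjust the adenine nucleotide content of the matrix, lay in different directions in the knockdown. They and SLC25A30 and SLC25A35 were chosen for description after their values were seen. SLC25A24 (chromosome 1, 108134036 to 108200849, minus strand) was at 15.3, 14.5 and 17.9 FPKM in shGPD1L, against 21.8, 24.2 and 24.7 FPKM in shNC. The groups did not overlap, and the change of -0.54 (SE 0.10, limma adjusted p = 0.0684) was -0.63 without shGPD1L replicate 3 (SE 0.08, limma adjusted p = 0.0105). In OE it was at 29.8, 28.1 and 28.0 FPKM, against 29.6, 30.9 and 27.5 FPKM in Vector, with overlap (change -0.03).

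SLC25A25 (chromosome 9, 128068201 to 128109245, plus strand) lay the other way in the knockdown, at 14.7, 14.5 and 19.2 FPKM in shGPD1L, against 11.1, 10.3 and 9.499 FPKM in shNC. Its change was 0.60 (SE 0.12, limma adjusted p = 0.0808), or 0.47 without shGPD1L replicate 3 (SE 0.08, limma adjusted p = 0.0247), and in OE it was 0.04, at 16.5, 17.6 and 18.1 FPKM against 17.8, 17.1 and 15.8 FPKM in Vector. It overlaps NAIF1 on the other strand. SLC25A23 was at 24.5, 23.1 and 30.7 FPKM in shGPD1L, against 23.5, 24.4 and 20.5 FPKM in shNC, with overlap (change 0.18, or 0.06 without shGPD1L replicate 3). It overlaps CRB3 on the other strand.

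Within the summed FPKM of these 3 genes, a share that a library's scaling leaves as it is and that was chosen after the values were seen, SLC25A24 took 28.0%, 27.8% and 26.4% in shGPD1L, against 38.7%, 41.1% and 45.2% in shNC. SLC25A25 took 27.0%, 27.9% and 28.3% in shGPD1L, against 19.7%, 17.4% and 17.4% in shNC. On these shares shGPD1L replicate 3 lay beside the other two libraries, and each gap between the means (-14.2 and 9.59 percentage points) was wider than the spread within a group, with an exact two-sided permutation p of 0.1, the smallest possible. In OE the share of SLC25A24 was 40.2% ± 1.56 and that of SLC25A25 24.4% ± 1.06, against 39.8% ± 0.727 and 23.0% ± 0.601 in Vector (SD, n = 3 each), and both overlapped. SLC25A23 took 44.8% ± 0.507 in shGPD1L against 40.2% ± 2.41 in shNC, and 35.4% ± 0.517 in OE against 37.3% ± 0.442 in Vector (SD, n = 3 each), without overlap in either table (exact two-sided permutation p = 0.1 each). The 3 shares make up one sum and depend on each other, so they are not separate results. The FPKM of SLC25A23 itself overlapped in the knockdown and did not in the overexpression.

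**Figure D3:**
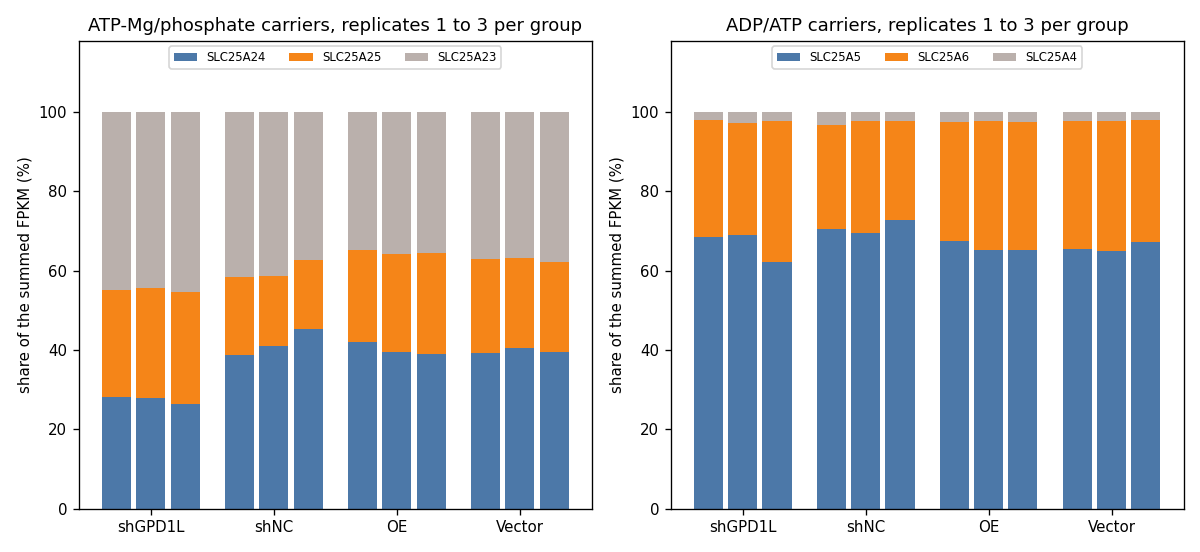
Share of each gene in the summed FPKM of the ATP-Mg/phosphate carriers (left) and of the ADP/ATP carriers (right), one bar per library for shGPD1L, shNC, OE and Vector. SLC25A24 lies at 26.4% to 28.0% in shGPD1L, below 38.7% to 45.2% in shNC, and SLC25A5 is the largest of the ADP/ATP carriers in every library.

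The ADP/ATP carriers, which export the ATP made in the matrix, are close in sequence, and SLC25A5 has many pseudogene copies, so reads may be divided between copies with error. SLC25A6 (chromosome X, 1386152 to 1392724, minus strand, in the pseudoautosomal region) was at 154, 152 and 185 FPKM in shGPD1L, against 129, 125 and 115 FPKM in shNC, without overlap (change 0.40, SE 0.10, limma adjusted p = 0.132; 0.31 with adjusted p = 0.0467 without shGPD1L replicate 3). In OE it was at 141, 155 and 162 FPKM, against 166, 170 and 156 FPKM in Vector, with overlap. SLC25A5 was at 356, 371 and 324 FPKM in shGPD1L, against 343, 308 and 336 FPKM in shNC, with overlap (change 0.09, or 0.14 without shGPD1L replicate 3). It was at 317, 312 and 325 FPKM in OE, against 337, 336 and 340 FPKM in Vector, without overlap but with a change of -0.09 (SE 0.04, limma adjusted p = 0.115). SLC25A4, the form known from muscle and heart, made up 2.33% ± 0.396 of the 3 genes in shGPD1L, 2.56% ± 0.549 in shNC, 2.47% ± 0.136 in OE and 2.13% ± 0.172 in Vector (SD, n = 3 each), with overlap in the knockdown and none in the overexpression (exact two-sided permutation p = 0.1). In the knockdown SLC25A5 took 66.6% ± 3.72 in shGPD1L against 70.9% ± 1.76 in shNC. SLC25A6 took 31.1% ± 3.82 in shGPD1L against 26.5% ± 1.69 in shNC, and both shares were without overlap (exact two-sided permutation p = 0.1). The groups nearly touched, at 28.28% and 28.27% in replicate 2 of shGPD1L and shNC for SLC25A6, and at 68.96% and 69.47% for SLC25A5. Replicate 3 of shGPD1L lay apart, at 35.45% for SLC25A6 and 62.28% for SLC25A5. Shares of one sum depend on each other, so these are not separate results, and the FPKM of SLC25A5 was not lower. Both shares overlapped between OE and Vector.

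The phosphate carrier SLC25A3 (chromosome 12, 98593591 to 98606379, plus strand) varied most between libraries of one group among the abundant members. It was at 158, 162 and 202 FPKM in shGPD1L, against 171, 200 and 209 FPKM in shNC. It was at 295, 209 and 165 FPKM in OE, against 210, 150 and 167 FPKM in Vector. Both comparisons overlapped. The knockdown change was -0.16 (-0.27 without shGPD1L replicate 3), and the OE change of 0.32 had a 95% interval of -0.13 to 0.76.

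Of the carriers related to the uncoupling proteins, SLC25A30 (chromosome 13, 45393316 to 45418455, minus strand) had the lowest estimated knockdown change of the 38 members. It was at 4.58, 3.66 and 5.41 FPKM in shGPD1L, against 8.28, 7.62 and 7.69 FPKM in shNC, a change of -0.69 (SE 0.12, limma adjusted p = 0.0672) without overlap, and of -0.80 without shGPD1L replicate 3 (SE 0.10, limma adjusted p = 0.0116). In OE it lay slightly higher, at 5.90, 5.93 and 6.06 FPKM, against 5.33, 5.40 and 5.00 FPKM in Vector, without overlap (change 0.16, SE 0.06, limma adjusted p = 0.104). SLC25A35, whose cargo is not assigned, was at 5.93, 4.38 and 4.81 FPKM in shGPD1L, against 8.34, 7.16 and 7.17 FPKM in shNC (change -0.51, limma adjusted p = 0.118, or 0.0767 without shGPD1L replicate 3). It overlaps RANGRF on the other strand.

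**Figure D4:**
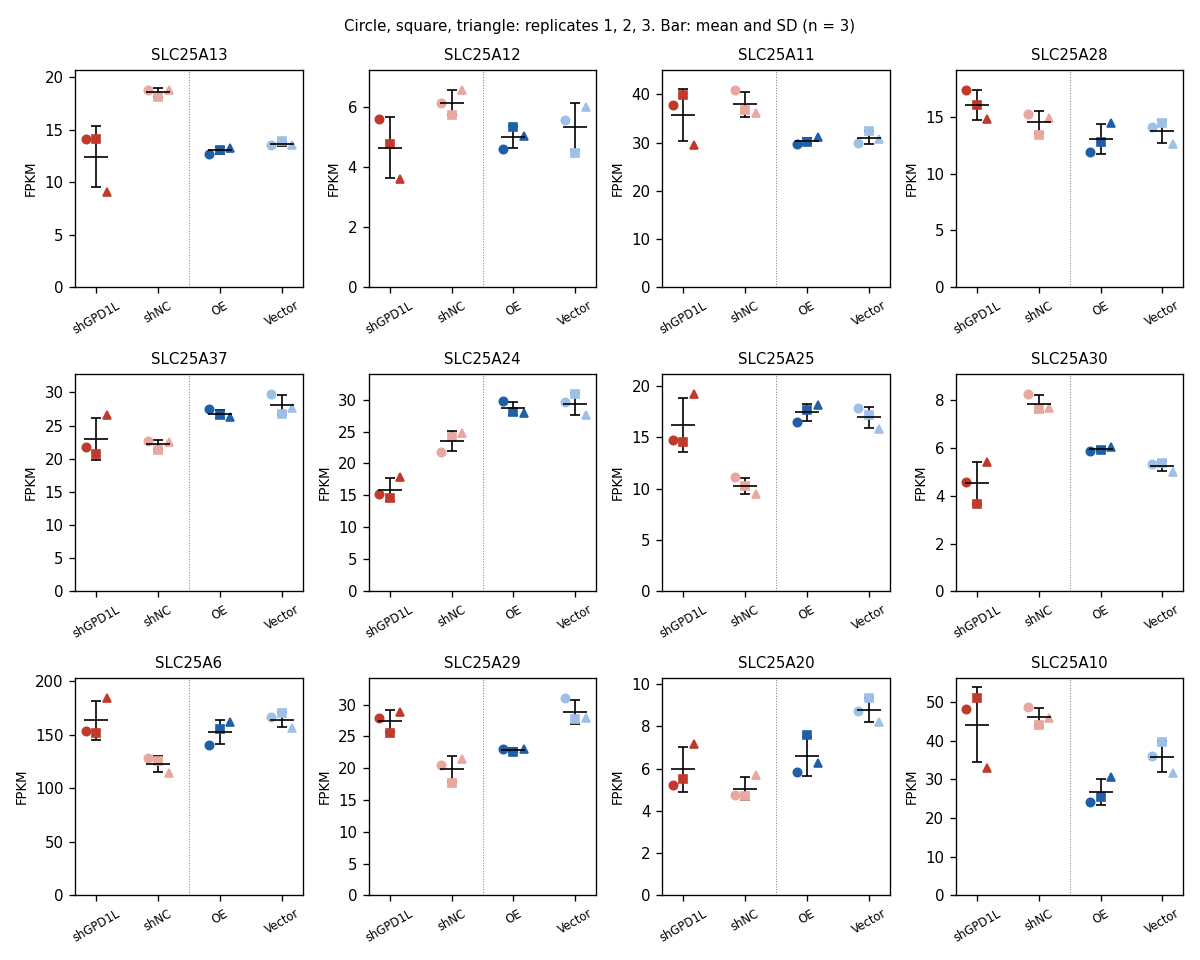
FPKM in every library for 12 members in shGPD1L, shNC, OE and Vector; circles, squares and triangles are replicates 1, 2 and 3, and bars are the mean and SD (n = 3). The triangle of shGPD1L lies apart from the other 2 shGPD1L libraries for SLC25A13 (9.08 FPKM) and SLC25A10 (33.0 FPKM), and the 3 OE points of SLC25A29 lie below the 3 Vector points.

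**Figure D5:**
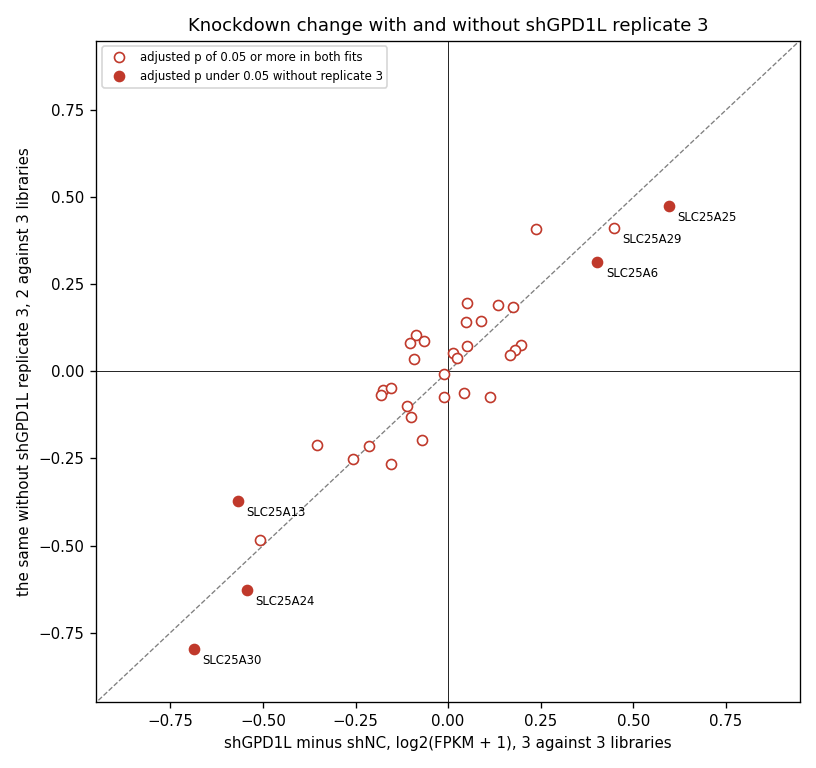
Change of the members reported here in the knockdown, in log2(FPKM + 1), over 3 against 3 libraries (horizontal) and without shGPD1L replicate 3 (vertical); the dashed line marks equal values and filled dots are called in the second fit. SLC25A25 (0.60 and 0.47), SLC25A6, SLC25A13, SLC25A24 and SLC25A30 (-0.69 and -0.80) are filled.

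In the comparison of OE with Vector, which asked which carriers differ when GPD1L is raised, 4 of the 38 members were called, all lower in OE, and none was called higher. OE libraries summed to 421714 to 423368 FPKM over all genes, below Vector libraries at 437051 to 438967 FPKM. Over all 12208 genes tested 22.4% were called, 12.2% higher and 10.3% lower, so the members' share of 10.5% was below the share of all genes in either direction and near the share called lower. The median change of the members was -0.03, against 0.02 for all genes. An unadjusted limma p under 0.05 was found for 13 members, 4 higher and 9 lower, and for 4623 of all 12208 genes, 2609 higher and 2014 lower. With library totals set equal, 7 members were called, 3 higher (SLC25A14, SLC25A30 and SLC25A38) and the same 4 lower, while 28.0% of all genes were called, 2441 higher and 977 lower. The count was 2 without Vector replicate 1 (SLC25A29 lower, SLC25A14 higher; 13.8% of all genes) and 1, SLC25A29, without OE replicate 1 (14.8% of all genes). Groups did not overlap for 13 members, 3 higher (24.2% of all genes) and 10 lower (17.6%), where 41.8% of all genes did not overlap.

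Of the 6 amino acid and carnitine carriers 3 were called lower, while SLC25A45 (0.31) and SLC25A38 (0.16) lay on the other side of 0, and of the 3 dicarboxylate carriers 1 was called lower. Of all genes 10.3% were called lower. SLC25A29 (ENSG00000197119, chromosome 14, 100291111 to 100306547, minus strand), which carries the basic amino acids arginine and lysine, was at 23.0, 22.5 and 23.0 FPKM in OE, against 31.1, 27.8 and 27.8 FPKM in Vector, a change of -0.32 (SE 0.06, limma adjusted p = 0.00616). Its call held in all 16 alternative settings, the highest limma adjusted p being 0.024. In the knockdown it lay the other way, at 27.9, 25.5 and 28.8 FPKM in shGPD1L, against 20.6, 17.6 and 21.4 FPKM in shNC, without overlap (change 0.45, SE 0.10, limma adjusted p = 0.0996, or 0.41 with 0.0541 without shGPD1L replicate 3).

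SLC25A20 (chromosome 3, 48856931 to 48898993, minus strand), the carnitine-acylcarnitine carrier that brings long-chain fatty acids to beta-oxidation, was at 5.86, 7.60 and 6.28 FPKM in OE, against 8.74, 9.35 and 8.20 FPKM in Vector (change -0.37, SE 0.09, limma adjusted p = 0.0251). That call did not hold when Vector replicate 1 or 2 or OE replicate 1 or 3 was left out (limma adjusted p 0.0633, 0.0846, 0.0704 and 0.0682). In the knockdown it was at 5.22, 5.49 and 7.17 FPKM in shGPD1L, against 4.76, 4.69 and 5.68 FPKM in shNC, with overlap (change 0.20, limma adjusted p = 0.493, or 0.08 without shGPD1L replicate 3). CPT2, the matrix enzyme that takes the acyl group over from this carrier, was also called lower in OE, at 16.7, 15.4 and 15.8 FPKM, against 17.6 to 21.9 FPKM in Vector (change -0.29, limma adjusted p = 0.0324). It lost its call in 6 of 16 settings. In the knockdown CPT2 was also lower, at 16.2, 17.54 and 13.83 FPKM in shGPD1L, against 18.74, 18.55 and 19.71 FPKM in shNC, without overlap. That change, -0.25 (limma adjusted p = 0.269), or -0.16 with 0.21 without shGPD1L replicate 3, was not called. CPT1A, the enzyme before the carrier, was at 22.4, 21.0 and 21.7 FPKM in OE, against 23.0, 23.9 and 23.1 FPKM in Vector (limma adjusted p = 0.164). Unlike CPT2, CPT1A was higher in the knockdown, without overlap. It was at 26.5, 25.16 and 23.92 FPKM in shGPD1L, against 22.86, 20.58 and 21.75 FPKM in shNC. That change, 0.20 (limma adjusted p = 0.271), or 0.24 with 0.101 without shGPD1L replicate 3, was not called.

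SLC25A10 (chromosome 17, 81712236 to 81721016, plus strand), the dicarboxylate carrier that exchanges malate and succinate for phosphate, was at 24.2, 25.3 and 30.5 FPKM in OE, against 36.1, 39.7 and 31.7 FPKM in Vector, close to touching (change -0.42, SE 0.10, limma adjusted p = 0.0226). Its call was lost in 5 of 16 settings, among them those without Vector replicate 1 or 2 or OE replicate 1 or 2 (limma adjusted p 0.0609, 0.0738, 0.0677 and 0.0676). In the knockdown it was at 48.2, 51.1 and 33.0 FPKM in shGPD1L, against 48.7, 43.9 and 45.8 FPKM in shNC, and the change of -0.09 was 0.10 without replicate 3.

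SLC25A44 (chromosome 1, 156193932 to 156212796, plus strand), a carrier of branched-chain amino acids, was at 7.16, 7.04 and 7.50 FPKM in OE, against 9.25, 8.26 and 9.21 FPKM in Vector (change -0.27, SE 0.07, limma adjusted p = 0.0233). Its call was lost without Vector replicate 1 or 3 or OE replicate 1 or 2, at 0.075, 0.0655, 0.0592 and 0.0691. In the knockdown it was at 8.88, 7.87 and 8.11 FPKM in shGPD1L, against 9.44, 9.47 and 8.20 FPKM in shNC, the same direction as in OE, with a change of -0.11 (limma adjusted p = 0.596), or -0.10 without shGPD1L replicate 3.

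SLC25A25 has 3 promoters, and which start these cells use was not tested. The promoters of SLC25A29, SLC25A20 and SLC25A44 are shown as examples of members that fell in the overexpression, together with the only promoter of SLC25A25 that holds a CRE. Each runs from 250 bases before to 50 bases after a RefSeq transcription start on GRCh38.p14, read 5′ to 3′ along the gene. Capitals mark matches on either strand to any of 9 motifs: the CRE TGACGTCA, which ATF and CREB proteins can bind, the AP-1 motif TGANTCA, the CARE motif TGATGNAA, the E-box CACGTG, the NRF1 motif, the YY1 motif AAGATGGCG, the ETS motif CCGGAAG, the GC box GGGCGGGG and the CCAAT box CCAAT.
SLC25A29 (chr14:100306395-100306694, minus strand): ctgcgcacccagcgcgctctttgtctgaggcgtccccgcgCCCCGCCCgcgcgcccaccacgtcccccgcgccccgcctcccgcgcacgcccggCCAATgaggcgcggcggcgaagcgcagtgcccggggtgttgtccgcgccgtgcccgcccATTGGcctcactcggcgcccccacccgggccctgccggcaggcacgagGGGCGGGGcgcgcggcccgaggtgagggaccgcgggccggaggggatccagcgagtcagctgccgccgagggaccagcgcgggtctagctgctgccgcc
SLC25A20 (chr3:48898833-48899132, minus strand): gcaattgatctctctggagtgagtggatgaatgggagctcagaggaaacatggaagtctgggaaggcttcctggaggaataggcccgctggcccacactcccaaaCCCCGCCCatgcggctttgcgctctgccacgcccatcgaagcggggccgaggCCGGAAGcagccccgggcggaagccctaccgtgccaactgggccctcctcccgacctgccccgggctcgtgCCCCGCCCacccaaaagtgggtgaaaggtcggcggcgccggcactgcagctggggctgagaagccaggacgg
SLC25A44 (chr1:156193854-156194153, plus strand): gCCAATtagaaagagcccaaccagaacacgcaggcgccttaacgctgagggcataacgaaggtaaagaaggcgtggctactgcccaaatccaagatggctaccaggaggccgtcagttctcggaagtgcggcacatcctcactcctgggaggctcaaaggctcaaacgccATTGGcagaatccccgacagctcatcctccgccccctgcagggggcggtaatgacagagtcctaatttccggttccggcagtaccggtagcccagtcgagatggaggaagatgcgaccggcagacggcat
SLC25A25 (chr9:128098257-128098556, plus strand): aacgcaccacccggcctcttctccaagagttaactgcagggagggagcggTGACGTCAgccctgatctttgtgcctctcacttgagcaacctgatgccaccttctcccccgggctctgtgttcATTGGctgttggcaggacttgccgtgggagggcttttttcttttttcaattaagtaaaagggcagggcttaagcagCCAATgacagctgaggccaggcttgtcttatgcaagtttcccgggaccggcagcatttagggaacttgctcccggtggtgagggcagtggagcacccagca

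The promoters shown of the fallen genes held only GC boxes, CCAAT boxes and, in SLC25A20, the ETS motif, and none of the marked matches overlapped another. SLC25A29 held 4 matches, SLC25A20 held 3 and SLC25A44 held 2. A promoter was found for 32 of the 38 members, with 41 starts in all. The GC box was in 36.6% of the members' promoters and 22.8% of all 35116 promoters, the CCAAT box in 46.3% and 34.6%, and the ETS motif in 24.4% and 10.3%. The E-box was in 19.5% and 7.26%, that is, in 8 members, SLC25A13 among them. The CRE was in 7.32% and 1.85%, the 3 members being SLC25A25, SLC25A33 and SLC25A36, and the NRF1 motif in 7.32% and 5.78%. The CARE motif (2.44% and 3.62%), the AP-1 motif (2.44% and 7.71%) and the YY1 motif (2.44% and 1.75%) were each in 1 member's promoter. These matches describe letters in a window and were not tested against the changes. The members were chosen for being expressed, and the promoters of all genes were not matched to them for expression. A member with several starts counts once per start, up to 4 for SLC25A22. The shares are therefore not read as a trait of the family.

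Whether the effects of raising and lowering GPD1L differ was tested as OE minus Vector less shGPD1L minus shNC over all 12 libraries, so that a positive value means that the signed change was more positive in OE than in shGPD1L, whatever its size. By this test 6 of the 38 members differed, 2 positive (against 9.14% of all genes) and 4 negative (5.0%), where 14.1% of 11208 genes differed. The members' share of 15.8% was near that of all genes. SLC25A29 had a difference of -0.77 (SE 0.11, limma adjusted p = 0.00208), SLC25A20 of -0.57 (0.17, 0.0408), SLC25A25 of -0.56 (0.14, 0.0229) and SLC25A6 of -0.51 (0.12, 0.0177), while SLC25A30 had one of 0.84 (0.14, 0.0039) and SLC25A24 of 0.51 (0.12, 0.0154). The calls of SLC25A24, SLC25A29 and SLC25A30 held in all 22 alternative settings, with adjusted p-values up to 0.0476, 0.0138 and 0.0308. Without shGPD1L replicate 3, 10 members differed, 3 positive (13.8% of all genes) and 7 negative (9.15%), where 22.9% of all genes differed, SLC25A5, SLC25A10 and SLC25A13 being among those added. Without OE replicate 1, 3 members differed, where 7.05% of all genes did.

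The other members gave no call in either comparison over all libraries. Of the glutathione carriers, SLC25A39 was at 134, 128 and 120 FPKM in shGPD1L, against 125, 128 and 124 FPKM in shNC. It was at 100 to 110 FPKM in OE, against 114, 117.6 and 110 FPKM in Vector, a change of -0.13 in OE (limma adjusted p = 0.0945). SLC25A40, its relative, had differences of -0.10 in the knockdown (-0.13 without shGPD1L replicate 3) and 0.06 in the overexpression, with overlap in both. The 9 carriers of cofactors and nucleotides ran from -0.21 (SLC25A16) to 0.24 (SLC25A26) in the knockdown, with SLC25A16 at -0.21 and SLC25A36 at -0.07 without shGPD1L replicate 3, and reached 0.25 (SLC25A36) in the overexpression. SLC25A26, the S-adenosylmethionine carrier, was the least even of them, at 10.6, 11.2 and 7.33 FPKM in shGPD1L, against 5.84, 7.27 and 11.7 FPKM in shNC, and its change was 0.41 without shGPD1L replicate 3. SLC25A26, SLC25A22 and SLC25A40 overlap LRIG1, PANO1 and DBF4 on the other strand. The citrate carrier SLC25A1 was at 50.6, 50.5 and 49.7 FPKM in shGPD1L, against 48.5, 41.3 and 43.6 FPKM in shNC, without overlap (change 0.18 with and without shGPD1L replicate 3, limma adjusted p = 0.344 and 0.206), and overlapped in OE. The glutamate carrier SLC25A22 differed by -0.01 in the knockdown, with and without shGPD1L replicate 3, a sign that turned with all 3 other scalings, and by 0.02 in the overexpression.

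Carriers of the family with other names and the machinery around them were read beside the members. Of 54 tested companion genes 0 were called by limma in the knockdown, with 6 at an unadjusted p under 0.05, against 1980 of all 12156 genes. Without shGPD1L replicate 3, 1 companion gene, FECH, was called, against 5.01% of all genes. In the overexpression 10 of 54 were called, 5 higher and 5 lower, against 22.4% of all genes, and the median change of the 54 was -0.03. With library totals set equal 13 were called, 10 higher and 3 lower, where 28.0% of all 12208 genes were called, 2441 higher and 977 lower. UCP2, the uncoupling protein that tumour cells commonly express, was at 4.20, 4.08 and 4.40 FPKM in OE, against 5.98, 5.96 and 5.97 FPKM in Vector (change -0.42, SE 0.06, limma adjusted p = 0.00392). It was at 8.19, 8.33 and 8.39 FPKM in shGPD1L, against 9.21, 7.41 and 7.59 FPKM in shNC, with overlap. UCP1 and UCP3 were not listed. MPC1, a subunit of the mitochondrial pyruvate carrier, was at 16.4, 12.5 and 15.2 FPKM in OE, against 11.0, 10.2 and 9.48 FPKM in Vector (change 0.48, limma adjusted p = 0.012). SFXN5, a sideroflexin, was at 5.40, 5.91 and 5.51 FPKM in OE, against 8.20, 7.64 and 7.16 FPKM in Vector (change -0.39, adjusted p = 0.0073). Of 13 import genes TOMM70, the outer membrane receptor that recognises carrier precursors, was called higher (change 0.23, adjusted p = 0.0159), and TIMM8A, an intermembrane space chaperone, lower (-0.33, 0.0324), a call lost in 5 of 15 settings, among them without Vector replicate 1, 2 or 3.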

How the data were processed

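The authors deposited 2 tables of FPKM per gene, 1 for each comparison. Per the submitters' processing notes, the tools are HISAT2, StringTie and DESeq2 and the build GRCh38; roles, versions and annotation were not given in these sources. Reads per library are unknown, so no counting error is given. Libraries summed to between 421714 and 444794 FPKM, and nearly all genes were above 0 in all 6 libraries of a table (99.7% and 99.8%).

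Libraries were grouped by title; in the genotype labels the number inside GPD1L runs on with the replicate, which was read as a numbering slip. Values were transformed to log2(FPKM + 1). Genes averaging 1 FPKM or more over a table's libraries were tested within each table by limma 3.58.1 (R 4.3.3) with an intensity trend, called at adjusted p under 0.05, and the difference of effects was fitted over 12 libraries on genes passing in both tables. Positions are from GENCODE 29, promoters from RefSeq (GRCh38.p14). Python 3.11.15 and matplotlib 3.10.9 were used. The fit was tested on simulated data with known answers.

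Values in every library are given for SLC25A11, SLC25A12, SLC25A13, SLC25A28, SLC25A37, the called members and the 3 most abundant, and of each companion list up to 2 called in each direction are named; others named were chosen after their values were seen. One member, which enters the counts, and one promoter are not reported here. The members, the companion lists and the rule were chosen with earlier results of these data known. Alternatives were other pseudocounts, filters, scalings and variance models, a replicate block and leaving out each library.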

Additional observations from a re-analysis of the deposited data

Results flagged for a closer look

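For 6 members the effect of raising GPD1L differed from the effect of lowering it, by the limma test of the difference (OE minus Vector less shGPD1L minus shNC), where 14.1% of all genes differed. The members' share of 15.8% was near that of all genes. Changes of opposite sign in the comparisons, as for SLC25A29, also give such a difference. The calls held in 22 of 22 settings for SLC25A24, SLC25A29 and SLC25A30, in 20 for SLC25A6, in 17 for SLC25A25 and in 14 for SLC25A20. SLC25A29 differed by -0.32 in OE against Vector and by 0.45 in shGPD1L against shNC, a difference of -0.77. SLC25A20 differed by -0.37 and 0.20 (0.08 without shGPD1L replicate 3), a difference of -0.57. SLC25A6 differed by -0.11 and 0.40, a difference of -0.51. SLC25A25 differed by 0.04 and 0.60, a difference of -0.56, and SLC25A24 by -0.03 and -0.54, a difference of 0.51. SLC25A30 differed by 0.16 and -0.69, a difference of 0.84. Groups of 3 libraries are too small for a test of single outlying samples.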

How the results depend on the processing

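Direction and side of the threshold stayed as reported in 762 of 810 alternative settings of single genes over the 3 comparisons. Genes not called in the reported fit count as unchanged when they stay uncalled. The figure therefore does not measure how firm the calls are, and the settings that lost a call are given with each gene. Members called in the knockdown ran from 0 to 5 when each library was left out, 5 being without shGPD1L replicate 3, and companion genes called from 0 to 1. In the overexpression 7 members were called with equal library totals, and 1 to 3 when each library was left out; in the difference of effects 3 to 10. The GPD1L knockdown change ran from -2.00 to -1.74 when each library was left out. Same-numbered libraries did not deviate together (correlations -0.18 to 0.022), so the replicate block pairs only numbers: with it 0, 3 and 4 members were called in the knockdown, overexpression (SLC25A10 lost, adjusted p = 0.0532 by limma) and difference (SLC25A6 and SLC25A25 lost), and 3, 2021 and 483 of all genes. All-gene knockdown calls were 72 in the reported fit, 25 with quantile normalization, 0 to 8 without any 1 of the other 5 libraries and 609 without shGPD1L replicate 3, so the all-gene share of 0.592% rests on the libraries kept. Signs turned for changes near 0. With libraries left out, the knockdown change of SLC25A10 ran from -0.2032 to 0.1038, of SLC25A11 from -0.1745 to 0.0345 and of SLC25A37 from -0.0606 to 0.1111; the overexpression change of SLC25A24 from -0.077 to 0.0031 and of SLC25A25 from -0.0059 to 0.0745; and the difference of effects of SLC25A11 from -0.0665 to 0.1426. With equal library totals the overexpression changes of SLC25A11 and SLC25A24 were 0.0177 and 0.0157, and with median-of-ratios scaling the difference of SLC25A11 was -0.0019. The cause was not tested. With 3 libraries a group and unknown read depth, changes in the weakly expressed members could not be given a counting error.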
